A study of Mus musculus with 35 samples.

Results

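Late-gained H3K4me3 peaks were regions that carried trimethylation of histone H3 at lysine 4 in the latest cultured oocyte-like cells and in full-grown oocytes from mice, and in neither earlier stage for which this mark was listed. They were the peaks of the c34 list on autosomes 1 to 19 that shared at least 1 base with a germinal vesicle (GV) oocyte peak and none with a c13 or an E18.5 peak. The rule was met by 13450 of 35321 autosomal c34 peaks, or 38.1%, of 36472 c34 peaks in all. They spanned 83.0 Mb, which was 32.8% of the autosomal c34 H3K4me3 length and 3.37% of the 2461 Mb compared. The peaks were thus chosen by the presence or absence of H3K4me3 in the 4 lists, which is given as a description, while H3K27me3 and H3K36me3 played no part in the choice.

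The study mapped 3 histone marks in female mouse germ cells by CATCH-seq, a chromatin immunoprecipitation for small cell numbers. The c7 stage, labelled oogonia-like, and the later c13 and c34 stages, both labelled oocyte-like, were cultured from 1 embryonic stem cell line, H18, which is labelled wild type and carries Prdm1-mVenus and Dppa3-ECFP reporters. E18.5 oocytes came from wild-type mice labelled with the same reporters, and GV oocytes, the full-grown oocytes still in meiotic arrest, from BDF1 animals labelled wild type, so GV oocytes differed from the other stages in strain as well as in stage. The age of the GV oocyte donors is not given in the sources used here. H3K4me3 was listed for c13, c34, E18.5 and GV from 4, 2, 2 and 1 libraries, and H3K27me3 also for c7.

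Each stage and mark had 1 deposited list of peak positions with no height and no depth, so no difference between stages could be set against replicate spread and no p-value is given. H3K4me3 lists ran from 25644 peaks at E18.5 to 37314 in GV oocytes, and a list may be longer because its libraries were deeper. As a check of the labels, starts of 7 of 7 oocyte genes (Figla, Gdf9, Nobox, Ooep, Zp1, Zp2 and Zp3) had H3K4me3 in c34, in GV oocytes and in c13, and 5 of 7 at E18.5. Of 9 markers of ovarian somatic cells, 4 had it in c34 (Amh, Foxl2, Inha and Wt1), 6 in GV oocytes, 6 in c13 and 4 at E18.5. In c34, 13649 of all 20665 autosomal protein-coding genes had H3K4me3 at a start, so counts of so few markers say little about identity. H3K4me3 is also found at silent promoters, so these marks do not count cells, and the part of somatic cells in the results was not tested.

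H3K4me3 is placed at promoters by SET1 and MLL complexes and in most cells forms narrow peaks at CpG-rich gene starts. Growing mouse oocytes are known for a further, noncanonical form, in which MLL2 lays broad H3K4me3 over intergenic and distal DNA that lacks DNA methylation. H3K27me3 is written by the Polycomb complex PRC2 over silent genes and, in oocytes, over wide intergenic domains. H3K36me3 follows transcription through gene bodies, where SETD2 writes it, and in oocytes it guides DNA methylation.

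A minority of late-gained peaks lay at gene starts, and 4 of those starts are shown because their genes carry the oocyte programme described below. The lines give the 250 bases before the RefSeq start (assembly GRCm38.p6), 5′ to 3′, with each CG dinucleotide in capitals. Nlrp5, at chr7:23385639-23385888 on the plus strand, encodes a protein of the subcortical maternal complex. Oosp1, at chr19:11691052-11691301 on the minus strand, encodes an oocyte-secreted protein. Btg4, at chr9:51115751-51116000 on the plus strand, encodes an adaptor that brings the deadenylase to maternal mRNA. H1f8, at chr6:115944681-115944930 on the plus strand, encodes the oocyte linker histone. They held 7, 4, 1 and 4 CG dinucleotides.
Nlrp5: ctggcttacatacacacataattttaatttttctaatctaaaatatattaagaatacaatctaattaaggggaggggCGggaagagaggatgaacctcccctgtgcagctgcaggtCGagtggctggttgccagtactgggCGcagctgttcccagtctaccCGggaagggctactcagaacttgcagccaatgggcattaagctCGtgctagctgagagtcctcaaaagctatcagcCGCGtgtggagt
Oosp1: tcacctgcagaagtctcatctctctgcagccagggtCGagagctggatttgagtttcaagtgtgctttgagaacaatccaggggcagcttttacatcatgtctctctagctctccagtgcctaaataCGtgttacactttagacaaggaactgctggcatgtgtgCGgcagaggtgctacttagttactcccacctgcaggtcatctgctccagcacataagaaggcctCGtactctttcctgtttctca
Btg4: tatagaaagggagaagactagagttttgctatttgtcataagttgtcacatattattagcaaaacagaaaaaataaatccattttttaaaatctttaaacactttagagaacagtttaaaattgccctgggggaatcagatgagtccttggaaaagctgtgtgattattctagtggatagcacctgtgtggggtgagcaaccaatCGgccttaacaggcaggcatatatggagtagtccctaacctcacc
H1f8: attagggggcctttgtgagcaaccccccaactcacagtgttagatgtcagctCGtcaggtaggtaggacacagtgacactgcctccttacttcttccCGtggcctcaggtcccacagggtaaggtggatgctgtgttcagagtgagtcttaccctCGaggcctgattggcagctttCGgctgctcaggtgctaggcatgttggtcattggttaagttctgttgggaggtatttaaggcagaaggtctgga

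Sparse CG was general among late-gained peaks that held a gene's own listed start. The 465 promoters of 417 genes, each 250 bases before to 50 after the start, had a median of 4 CG dinucleotides (quartiles 2 and 6), against 22 (quartiles 14 and 30) in 12070 promoters at early-shared peaks. Early-shared peaks are c34 peaks that met a GV peak and also a c13 or E18.5 peak. At most 5 CG were found in 72.0% of late-gained promoters, against 7.29% of early-shared promoters and 31.4% of all 20085 promoters in the table. At least 15 CG were found in 1.08% of late-gained promoters, against 73.0% of early-shared promoters and 48.1% of all promoters. Starts with no H3K4me3 at any of the 4 stages, 3865 in number, had a median of 2 CG, so late-gained promoters lay near that end of the range.

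Short motifs were read on both strands of the same windows as a description. The GC box core GGGCGG stood in 13.1% of late-gained promoters, 66.0% of early-shared promoters and 47.0% of all promoters. The TATA box letters TATAAA stood in 18.1% of late-gained, 6.40% of early-shared and 12.7% of all promoters. CANNTG, the general E-box, stood in 87.5% of late-gained, 62.5% of early-shared and 68.7% of all promoters, and it takes in CACGTG, which stood in 4.52%, 10.2% and 7.89%. The homeodomain core TAATTA stood in 6.67% of late-gained, 2.34% of early-shared and 4.48% of all promoters. At the 3865 starts with no H3K4me3 at any of the 4 stages, TATAAA stood in 30.2%, TAATTA in 10.5%, GGGCGG in 5.87% and CANNTG in 79.8%. TATAAA and TAATTA were thus commoner there than in late-gained promoters. Of the printed upstream sequences, Nlrp5 held the homeodomain core, the general E-box and the GC box core, and the other three held the general E-box alone. Median GC content was 49.3% in late-gained promoters and 62.0% in early-shared ones, and motif shares were not adjusted for it.

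Late-gained peaks had the median width of all c34 peaks and were narrower than early-shared ones. Their c34 width ran from 1 to 69 kb with a median of 5 kb (quartiles 3 and 8), against a median of 5 kb (quartiles 3 and 9) for all c34 peaks and 7 kb (quartiles 3 and 12) for 16336 early-shared peaks. The 3478 c34-only peaks, found in no other list, had a median of 4 kb, and the 2057 c34 peaks shared with an early list but not with GV oocytes a median of 3 kb. Of the late-gained peaks, 566 were 1 kb wide, the smallest width the grid allows, and 202 (1.5%) were 20 kb or wider. A wide peak has more room to touch another list, so width is partly set by the rule.

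In GV oocytes the same places were mostly inside broader H3K4me3. GV peaks covered 73.8 Mb, or 88.9%, of the late-gained length, and 10376 late-gained peaks (77.1%) lay wholly inside GV H3K4me3. They met 11742 of 35244 autosomal GV peaks (33.3%), whose median width was 15 kb (quartiles 8 and 31, widest 239), against 10 kb for the other GV peaks. The GV peak was wider than the c34 peak for 11388 late-gained peaks (84.7%), and 2247 met GV peaks of 50 kb or more. A wide GV peak has more room to be met by a c34 peak, so these GV widths are partly set by the rule. They were not compared with the GV peaks met by early-shared peaks. Of the GV peaks met, most held a single late-gained peak (10265), while 1195 met 2 and 282 met 3 or more, with 9 the most. The late-gained c34 length made up 12.1% of the 612 Mb of autosomal GV H3K4me3, so most of that length lay elsewhere.

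Few late-gained peaks bordered an early peak. The median gap to the nearest c13 or E18.5 peak was 24 kb (quartiles 10 and 61), with 208 peaks touching one at a gap of 0, 1408 (10.5%) less than 5 kb away and 2157 more than 100 kb away. A GV peak that also met an early peak held 3597 late-gained peaks (26.7%). At the edges of the rule, 117 late-gained peaks wider than 1 kb shared only 1 kb with GV oocytes (median width 3 kb, 5.13% at a gene start), and 433 had an early peak at most 1 kb away (median width 6 kb, 5.31% at a gene start). Just outside it, 1229 early-shared peaks met early peaks over only 1 kb (median width 2 kb, 34.1% at a gene start), and 42 c34-only peaks had a GV peak at most 1 kb away, none at a gene start.

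Late-gained peaks lay away from gene starts. A protein-coding gene start fell in or within 1 kb of 605 of them, or 4.5% (Wilson 95% interval 4.16 to 4.86), against 64.6% of early-shared peaks (63.9 to 65.4) and 33.1% of all autosomal c34 peaks. These intervals cover counting error only, and neighbouring peaks are not independent. The share was lower in late-gained than in the remaining c34 peaks on 19 of 19 chromosomes, at 2.04 to 7.27% against 43.6 to 60.5%. The c34-only peaks, also absent from the early lists, had 2.16%. Early-shared peaks were picked by the early lists, so the contrast with them also describes those lists. The share was 7.72% for starts within 5 kb, 15.3% for starts of all genes in the table, 6.96% with either annotated end of every gene and 8.79% where the E18.5 list alone excluded peaks.

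The median distance to the nearest start was 55.2 kb for late-gained peaks, against 0 kb for early-shared peaks. Another 433 late-gained peaks (3.22%) lay 1 to 5 kb from a start, 2603 (19.4%) at 5 to 20 kb, 4935 (36.7%) at 20 to 100 kb and 4874 (36.2%) beyond 100 kb. In early-shared peaks those bins held 2.46%, 12.2%, 14.6% and 6.06%. The GV-only peaks, 9201 GV peaks met by no other list, were farther out still, with a median of 107 kb.

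**Figure D1:**
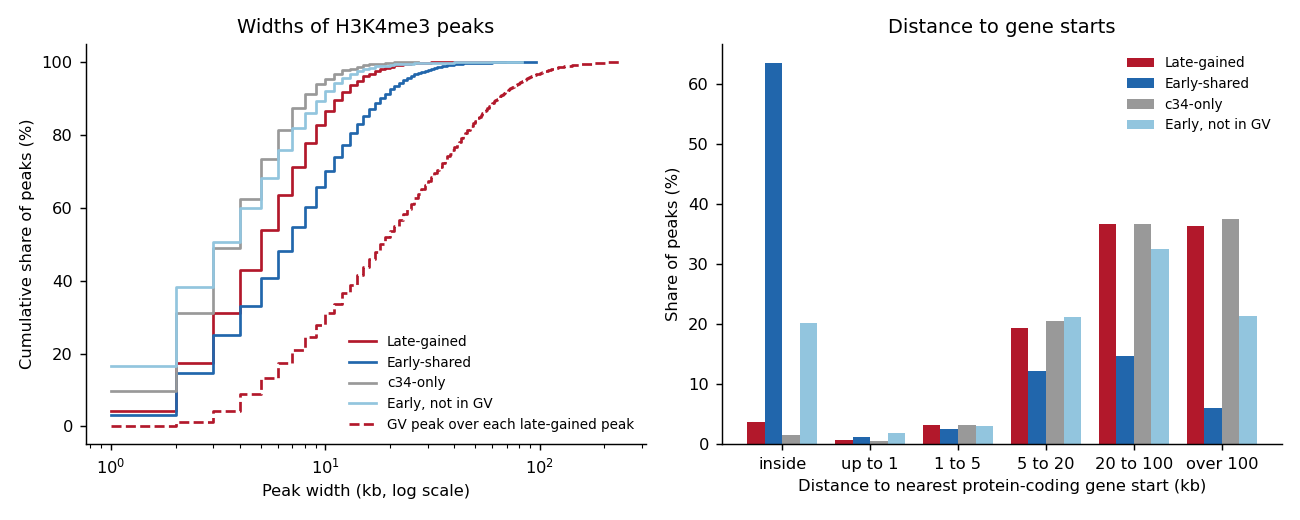
Peak width in kb and distance to the nearest protein-coding gene start in kb are plotted as shares (percent) of each class of peaks. Late-gained peaks had a median width of 5 kb and a median distance of 55.2 kb, and early-shared peaks 7 kb and 0 kb.

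Most late-gained peaks were also outside protein-coding genes. At least 50% of the peak lay in gene bodies for 4266, or 31.7% (30.9 to 32.5), against 57.4% of early-shared peaks, 52.8% of c34-only peaks and 47.6% of all c34 peaks. Protein-coding genes made up 40% of the autosomes, so late-gained peaks fell below that share and c34-only peaks above it. The late-gained share was the lower on 19 of 19 chromosomes, at 26.0 to 38.3% against 46.9 to 64.1% of the remaining c34 peaks.

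Late-gained peaks were spread over all autosomes. Their density ran from 4.37 per Mb on chromosome 14 to 6.71 per Mb on chromosome 18, and their share of c34 peaks from 27.3% on chromosome 11 to 46.2% on chromosome 18. Of 2470 windows of 1 Mb, 2280 (92.3%) held at least 1, with a median of 6 per window. The fullest window, chr15:6000001-7000000, held 21 late-gained peaks around Dab2, C9, Fyb, Rictor and Osmr. The next 3 held 19 each, on chromosome 1 from 151000001 (among its genes Rnf2, Swt1 and Edem3), on chromosome 13 from 57000001 (Spock1) and on chromosome 5 from 106000001 (Barhl2, Zfp644, Hfm1 and Cdc7). The fifth, on chromosome 10 from 25000001, held 18 (Akap7, Epb41l2, Smlr1 and Tmem200a). Their H3K27me3 was not alike: c34 H3K27me3 covered on average 29.1%, 52.6%, 55.7%, 82.0% and 5.56% of each late-gained peak in these windows, and GV H3K27me3 none in 4 of them and 5.56% on chromosome 10.

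H3K27me3 covered fewer of these peaks in GV oocytes than at the other stages. The GV list came from 1 library, and those of the other stages from 2 each, so spread between GV libraries is not known and its part in the low GV share was not tested. At least 50% of the peak was under H3K27me3 in GV oocytes for 1248 late-gained peaks, or 9.28% (8.80 to 9.78), against 6252, or 46.5% (45.6 to 47.3), at E18.5. In culture the count was 5982 (44.5%) in c7, 7227 (53.7%, 52.9 to 54.6) in c13 and 4382 (32.6%, 31.8 to 33.4) in c34. All autosomal c34 peaks gave 14.5% in GV oocytes and 39.9% at E18.5, and 41.9%, 59.5% and 33.7% in c7, c13 and c34. By length, GV H3K27me3 covered 28.3% of the autosomes and E18.5 H3K27me3 39.7%, and the c7, c13 and c34 lists covered 35.1%, 42.4% and 36.9%. Late-gained peaks were thus below the genome share in GV oocytes and c34 and above it at E18.5, c7 and c13.

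The low GV share was lower than in the other classes of c34 peaks. H3K27me3 of GV oocytes covered 16.7% of early-shared peaks (16.1 to 17.3) and 16.2% of c34-only peaks (15 to 17.4), and 14.7% of GV-only peaks. The late-gained share was lower than that of the remaining c34 peaks on 19 of 19 chromosomes, by 3.73 to 12.2 percentage points. By width, the shares were 11.3% of late-gained against 30.1% of early-shared peaks up to 2 kb wide, and 4.25% (2.70 to 6.61) against 6.59% (5.60 to 7.74) over 16 kb, where the intervals overlap. Among peaks away from gene starts and outside genes, 8.24% of 8885 late-gained peaks were covered, against 16.9% of 3489 early-shared peaks. H3K4me3 of GV oocytes as a whole was under GV H3K27me3 for 16.2% of its length, and all late-gained and early-shared peaks carry GV H3K4me3 by the rule.

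At E18.5 the order over all peaks was the other way round. E18.5 H3K27me3 covered 46.5% of late-gained peaks, against 35.9% of early-shared peaks (35.2 to 36.7) and 33.5% of c34-only peaks. The late-gained share was higher than that of the remaining c34 peaks on 19 of 19 chromosomes, with 34 to 68.7% per chromosome and differences of 1.63 to 20.3 points. Away from starts it was the lower, at 46.5% in late-gained peaks against 48.5% in early-shared peaks. This held outside genes (51.0% against 55.3%) and in genes (36.3% against 38.3%). At starts the late-gained share was the higher, at 46.9% against 29.0%. The direction of the difference from early-shared peaks thus depended on where the peaks lay. In c34 the late-gained share was 32.6%, against 38.2% of early-shared peaks and 17.7% of c34-only peaks, and it was above that of the remaining c34 peaks on 8 chromosomes and below it on 11. In c13 it was 53.7% against 68.6% of early-shared peaks, and lower than in the remaining c34 peaks on 17 of 19 chromosomes.

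**Figure D2:**
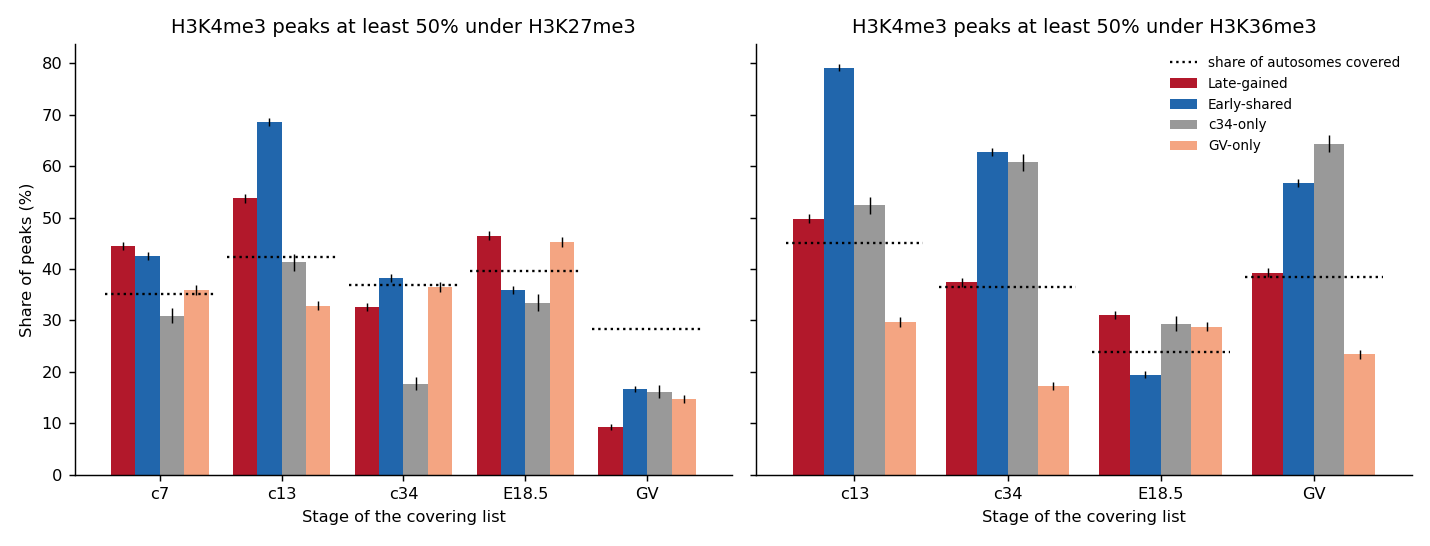
The share of peaks (percent) with at least 50% of their width under H3K27me3 or H3K36me3 is plotted for each stage and class of peaks, with Wilson 95% intervals and the share of the autosomes as reference. GV H3K27me3 covered 9.28% of late-gained peaks and 16.7% of early-shared peaks, and E18.5 H3K27me3 46.5% and 35.9%. Among peaks away from gene starts, E18.5 H3K27me3 covered 46.5% and 48.5%.

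Following single peaks, few of those covered early were covered in GV oocytes. Of 6252 late-gained peaks under E18.5 H3K27me3, 722 (11.5%) were under GV H3K27me3, against 26.0% of early-shared, 28.4% of c34-only and 19.6% of GV-only peaks, and 40.3% of the E18.5 H3K27me3 length on the autosomes. In culture, 3644 of 7227 late-gained peaks under c13 H3K27me3 (50.4%) were so in c34, close to the 49.9% of early-shared peaks and below the 63.5% of autosomal length. Between the late stages, 1121 of 4382 late-gained peaks under c34 H3K27me3 (25.6%) were under it in GV oocytes, against 41.7% of early-shared peaks and 59.8% of autosomal length. In the other direction, 1121 of the 1248 late-gained peaks under GV H3K27me3 (89.8%) were under it in c34, near the 90.6% of all c34 peaks. The stages are different cell preparations, and BDF1 and H18 differ in strain, so stage, strain and origin of the cells cannot be told apart here.

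H3K27me3 was locally low at the late-gained peaks in both late stages. Around their centres, GV H3K27me3 covered 9.25% of late-gained peaks at the centre, against 21.0% and 21.1% at 100 kb on either side. In c34 it covered 32.4% at the centre, against 38.0% and 38.3% at 100 kb. The earlier stages had the reverse shape, with 44.4% at the centre in c7 (38.3% and 38.9% at 100 kb), 53.7% in c13 (48.2% and 47.9%) and 46.4% at E18.5. Early-shared peaks also had low centres, at 37.9% in c34 (42.4% and 42.9% at 100 kb) and at 16.5% in GV oocytes (24.2% and 24.4%), so this shape was not particular to late-gained peaks. At the centres of GV-only peaks, which had no c34 H3K4me3, c34 H3K27me3 stood at 36.5%, against 32.5% and 32.1% at 100 kb, and GV H3K27me3 at 14.7%, against 19.4% and 18.6%.

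**Figure D3:**
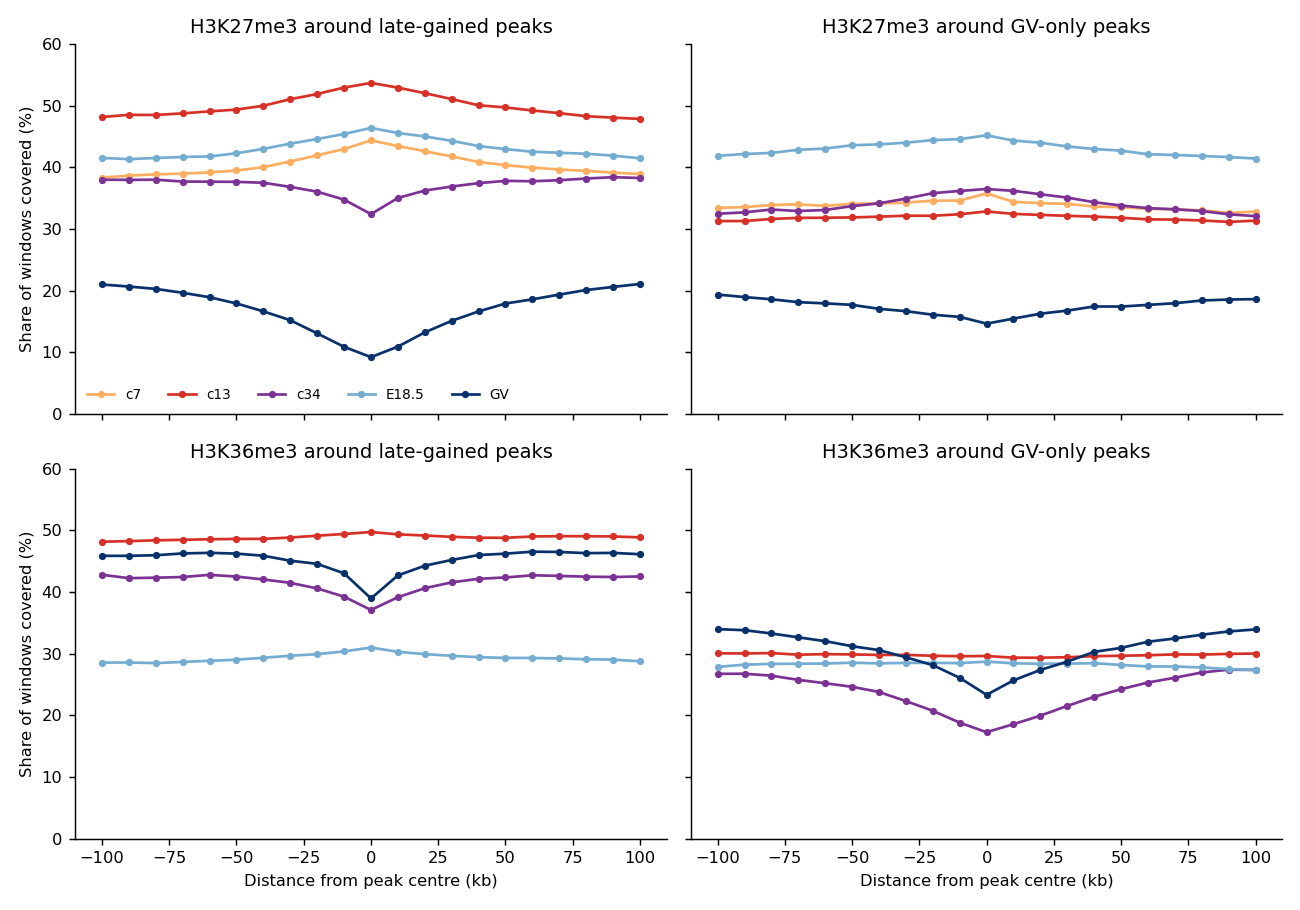
The share of peaks (percent) covered by H3K27me3 or H3K36me3 is plotted against distance from the peak centre (kb, from −100 to 100) for each stage, around late-gained and GV-only peaks. At late-gained centres GV H3K27me3 stood at 9.25% and c34 H3K27me3 at 32.4%, below their flanks, while the lines of c7, c13 and E18.5 were higher at the centre than at 100 kb.

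H3K36me3 covered fewer late-gained than early-shared peaks at every stage but E18.5. At least 50% of the peak was under it for 5285 late-gained peaks (39.3%, 38.5 to 40.1) in GV oocytes, against 4176 (31.0%, 30.3 to 31.8) at E18.5, and for 5029 (37.4%, 36.6 to 38.2) in c34, against 6694 (49.8%, 48.9 to 50.6) in c13. All c34 peaks gave 51.1% in GV oocytes, 24.9% at E18.5, 52.7% in c34 and 64.6% in c13. By length the autosomes were covered to 38.5% in GV oocytes, 23.8% at E18.5, 36.5% in c34 and 45% in c13. Late-gained peaks were close to that genome share in c34 and GV oocytes.

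Early-shared peaks were covered to 56.7% in GV oocytes, 19.5% at E18.5, 62.7% in c34 and 79.1% in c13, and c34-only peaks to 64.4%, 29.4%, 60.7% and 52.4%. GV-only peaks were the least covered in the late stages, at 23.4% in GV oocytes and 17.3% in c34. Late-gained peaks had a lower share than the remaining c34 peaks on 19 of 19 chromosomes in GV oocytes, c34 and c13, and a higher one on 19 of 19 at E18.5. The c34 values ran from 26.7 to 48.8% per chromosome in late-gained peaks and from 51.0 to 70.9% in the remaining c34 peaks. Of the 5029 late-gained peaks under c34 H3K36me3, 4009 (79.7%) were under it in GV oocytes too, near the 81.7% of early-shared peaks and below the 85.4% of autosomal length.

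The lower cover was seen inside and outside genes. Among peaks in gene bodies and away from starts, H3K36me3 covered 55.2% of 3960 late-gained peaks in GV oocytes and 53.9% in c34, against 61.3% and 65.9% of early-shared peaks. Outside genes it covered 31.4% of late-gained peaks in GV oocytes and 29.0% in c34, against 38.8% and 39.6% of early-shared peaks. The differences had the same direction in both places but were smaller than over all peaks. At late-gained centres H3K36me3 stood at 39.0% in GV oocytes (45.9% and 46.1% at 100 kb) and at 37.1% in c34 (42.8% and 42.5%).

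**Figure D4:**
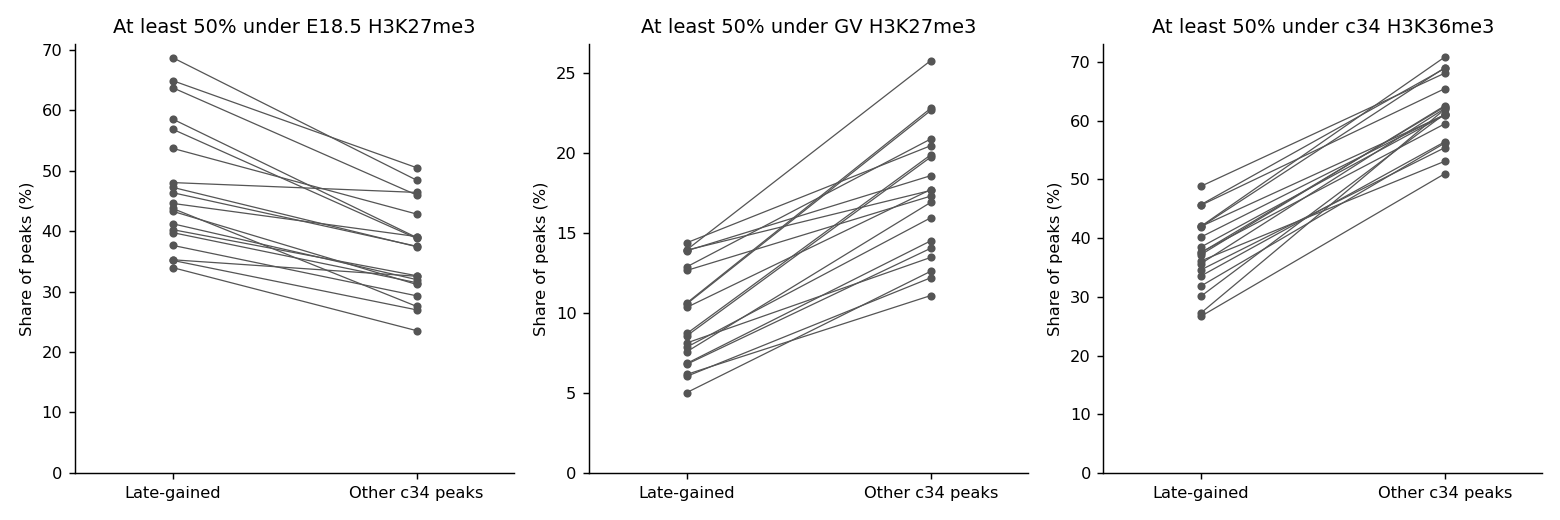
Shares of peaks (percent) at least 50% under E18.5 H3K27me3, GV H3K27me3 and c34 H3K36me3 are plotted, a line joining late-gained and remaining c34 peaks of each of the 19 autosomes. GV H3K27me3 ran from 5.02 to 14.4% in late-gained peaks and from 11.1 to 25.8% in the remaining c34 peaks.

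Most late-gained peaks had neither H3K27me3 nor H3K36me3 in GV oocytes. There 7223 (53.7%) were at least 50% under neither mark, 4979 (37.0%) under H3K36me3 alone, 942 (7.00%) under H3K27me3 alone and 306 (2.28%) under both. All c34 peaks gave 37.9%, 47.6%, 11.1% and 3.44% for the same 4 states, and 65.3% of GV-only peaks were under neither. In c34, 5179 (38.5%) were under neither, 3889 (28.9%) under H3K36me3 alone, 3242 (24.1%) under H3K27me3 alone and 1140 (8.48%) under both, beside 24.8%, 41.5%, 22.6% and 11.2% of all c34 peaks. H3K27me3 alone was thus near the share of all c34 peaks in c34. In c13 5096 (37.9%) were under both, below the 47.3% of all c34 peaks and the 58.2% of early-shared peaks. Over the 5 stages 3091 (23%) were under H3K27me3 at none and 511 (3.80%) at all, and the commonest other history was H3K27me3 in c7, c13, c34 and E18.5 and not in GV oocytes, with 1291 peaks. For H3K36me3, 3242 (24.1%) were covered at none of 4 stages, 2074 in c13, c34 and GV oocytes, and 731 (5.43%) in both late stages alone. That last history was near the 5.37% of all c34 peaks. The other histories given here were not counted over all c34 peaks, so they are not called particular to late-gained ones.

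A small set of protein-coding genes had a start at a late-gained peak: 634 of 20665, or 3.07%, against 12669 (61.3%) at early-shared peaks. Of these, 147 also had another start at an early peak. Starts came from RefSeq for 16457 genes, and both annotated ends were used for the other 4208. Peaks at the 634 starts were covered by H3K27me3 to 7.26% in GV oocytes and 46.5% at E18.5, and to 51.7%, 63.2% and 35.8% in c7, c13 and c34. Of all c34 peaks at starts, 16.4% were covered in GV oocytes and 30.5% at E18.5, and 39.5%, 64% and 34.1% in c7, c13 and c34, so the c13 and c34 shares were near those of all start peaks. The 634 were covered by H3K36me3 to 52.1% in GV oocytes, 29.2% at E18.5, 54.3% in c34 and 64.0% in c13. All c34 peaks at starts gave 60.5%, 19.5%, 68.0% and 78.2%, so the 634 were below them at every stage but E18.5.

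Genes that act in the egg were found among them. Of 32 maternal effect and egg genes, 10 (31.3%) had a start at a late-gained peak, beside the 3.07% of all genes, and 19 at an early-shared peak. On listed starts alone it was 9 of 26, beside 2.53% of all genes. For zona and oocyte-secreted factors it was 3 of 13 (Oog1, Oosp1 and Oosp3), or 2 of 8 on listed starts. Oosp3, like Oas1d of the egg genes, rests on an annotated end, and Oosp1 and Oosp3 shared 1 peak. The count was 1 of 14 for oocyte transcription factors (Tbpl2) and 1 of 18 for meiotic arrest and maturation (Aurkc). It was 5 of 26 for genes of embryonic genome activation, of which Obox6, Tcstv1 and Usp17le rest on an annotated end (2 of 20 on listed starts), 1 of 22 for pluripotency and early germ cell genes (Dppa2, also by an annotated end) and 1 of 28 for ovarian somatic genes (Cyp11a1, which makes pregnenolone and also had a start at an early peak). It was 0 for meiotic prophase (37 genes), germline and piRNA (25), developmental regulators (50), H3K27me3-dependent imprinting (16), maternal germline methylation (20), chromatin machinery (43), growth signalling (31), transport (31) and housekeeping (18). The lists were chosen with earlier results of these data known, so the counts describe and do not test a theme.

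The Nlrp genes, which encode proteins with a nucleotide-binding domain and leucine-rich repeats, several of them egg-specific, made up 7 of the 10. Of 18 Nlrp genes, 10 had H3K4me3 at a start in GV oocytes and 0 at E18.5, and 8 had it in c34 and 4 in c13. In c34, 13649 of all 20665 protein-coding genes had it at a start, so 8 of 18 was below that share. The share of all genes is not given here for the other stages. The 7 were picked for H3K4me3 in the late stages and not the early ones, so these stage counts partly follow from the rule. At Nlrp5 (Mater) the late-gained peak chr7:23383001-23398000 was 15 kb wide, met a GV peak of 11 kb and lay 682 kb from the nearest early peak. It had no H3K27me3 at any of 5 stages, and H3K36me3 covered 100% of it in c34, GV oocytes and E18.5 oocytes and 0% in c13. At Nlrp2 a 15 kb peak, chr7:5342001-5357000, was wholly under H3K27me3 in c7 and at E18.5 and wholly under H3K36me3 in c34 and GV oocytes, with no H3K36me3 earlier.

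Nlrp4a and Nlrp9c, neighbours on chromosome 7, and Nlrp9a had peaks of 7, 8 and 5 kb, each wholly under H3K27me3 at E18.5, under none in c34 or GV oocytes, and wholly under H3K36me3 in c34, GV oocytes and E18.5 oocytes. Nlrp4b (2 kb) had no H3K27me3 at any stage, and Nlrp4f (4 kb, under a GV peak of 27 kb) had it at E18.5 only. Over the 7, at least 50% of the peak was under H3K36me3 for 7 in c34, 6 in GV oocytes, 4 at E18.5 and 0 in c13. Of all 634 genes, 54.3%, 52.1%, 29.2% and 64.0% were so covered. At least 50% was under H3K27me3 for 0 of the 7 in GV oocytes, c34 and c13, 2 in c7 and 5 at E18.5. In culture it was thus already absent in c13. Of all 634 genes, 7.26%, 35.8%, 63.2%, 51.7% and 46.5% were under H3K27me3 in GV oocytes, c34, c13, c7 and E18.5. For 7 genes the 0 in GV oocytes is near the 7.26%. Copies of such clustered families are alike in sequence, so reads of one gene may be counted at another and the peaks of single members are uncertain.

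The other egg genes were not alike in their marks. Btg4, whose protein triggers the clearance of maternal mRNA, had a peak of 15 kb (chr9:51110001-51125000) inside a GV peak of 69 kb, wholly under H3K27me3 in c7, c13, c34 and E18.5 and under none in GV oocytes, with no H3K36me3 at any stage. H1f8, the oocyte linker histone, had a 12 kb peak (chr6:115942001-115954000) that met a GV peak of 48 kb, with 7 kb in GV H3K4me3. H3K27me3 covered all of the H1f8 peak in c13, none in c34 and 33.3% in GV oocytes. H3K36me3 covered all of it in c13, c34 and GV oocytes. Oas1d, of the oligoadenylate synthetase family, had a 12 kb peak wholly under H3K27me3 in c7, c13 and at E18.5 and under none in c34 and GV oocytes. Oosp1 and Oosp3 shared a 13 kb peak (chr19:11687001-11700000), under H3K27me3 in c7, c13 and at E18.5, and in c34 and GV oocytes under H3K36me3 alone.

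Tbpl2, the TBP paralogue that replaces TBP in growing oocytes, had a 3 kb peak in a GV peak of 9 kb, under H3K27me3 in c7 and at E18.5 and under H3K36me3 in c34 alone. The 4 kb peak at Oog1, a Prame-like gene, touched an early peak at a gap of 0 and had neither mark at any stage. Aurkc, the meiotic Aurora kinase, had a 3 kb peak 4 kb from an early peak, under no H3K27me3 and wholly under H3K36me3 at all 4 stages listed. Over these 15 genes of the oocyte, egg and maturation lists (14 peaks), at least 50% was under H3K27me3 for 0 in GV oocytes against 10 at E18.5, and for 7 in c7, 5 in c13 and 1, Btg4, in c34. The 0 in GV oocytes stands beside 7.26% of all 634 genes, and the counts at E18.5, c7, c13 and c34 beside 46.5%, 51.7%, 63.2% and 35.8%. For 15 genes a count of 0 is near the 7.26%, so it is not called particular to them. At least 50% was under H3K36me3 for 11 (73.3%) in GV oocytes, 5 (33.3%) at E18.5, 13 (86.7%) in c34 and 3 (20.0%) in c13. Of all 634 genes the shares were 52.1%, 29.2%, 54.3% and 64.0%, so the E18.5 share was near that of all 634.

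Among genes used around embryonic genome activation, Duxf3, which encodes a double homeobox protein, had a 26 kb peak (chr10:58215001-58241000) with 25 kb in GV H3K4me3. It was wholly under H3K27me3 in c7 and at E18.5, 96.2% covered in c34 and at 0% in c13 and GV oocytes. H3K36me3 covered all of it in c13, c34 and GV oocytes and 0% at E18.5. The homeobox gene Obox6 had a 12 kb peak that met a GV peak of 68 kb, with 7 kb in GV H3K4me3. Obox5, its neighbour in the cluster, had a peak of 5 kb. Usp17le and Tcstv1 had peaks of 14 kb and 4 kb. Dppa2, which primes promoters of the early embryo, had a 6 kb peak under H3K36me3 in c34 alone. These families too consist of close copies.

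Other gene families differed in how many starts lay at late-gained peaks. The count was 3 of 6 Obox genes, 13 of 49 Prame-like genes, 9 of 67 protocadherins, 18 of 362 solute carriers, 19 of 1104 olfactory receptors, 1 of 230 type 1 and 2 of 122 type 2 vomeronasal receptors, 5 of 388 Zfp genes, 1 of 53 keratins and 0 of 39 Hox genes, beside 3.07% of all genes. On listed starts alone, with 2.53% of all genes as background, the counts were 2 of 5 Obox, 11 of 40 Prame-like, 1 of 8 protocadherin, 10 of 282 solute carrier, 17 of 938 olfactory receptor and 2 of 325 Zfp genes, so most protocadherin entries rest on an annotated end. The Prame-like genes had H3K36me3 for 7 of 13 in GV oocytes and 11 at E18.5, and for 3 in c34, and H3K27me3 for none in c34. Of 9 protocadherin genes, 1 had H3K27me3 in GV oocytes and 8 at E18.5, and 8 had it in c7 and 5 in c34. Of all 634 genes, 52.1%, 29.2% and 54.3% were under H3K36me3 in GV oocytes, at E18.5 and in c34. H3K27me3 covered 7.26%, 46.5%, 51.7% and 35.8% of the 634 in GV oocytes, E18.5, c7 and c34.

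**Figure D5:**
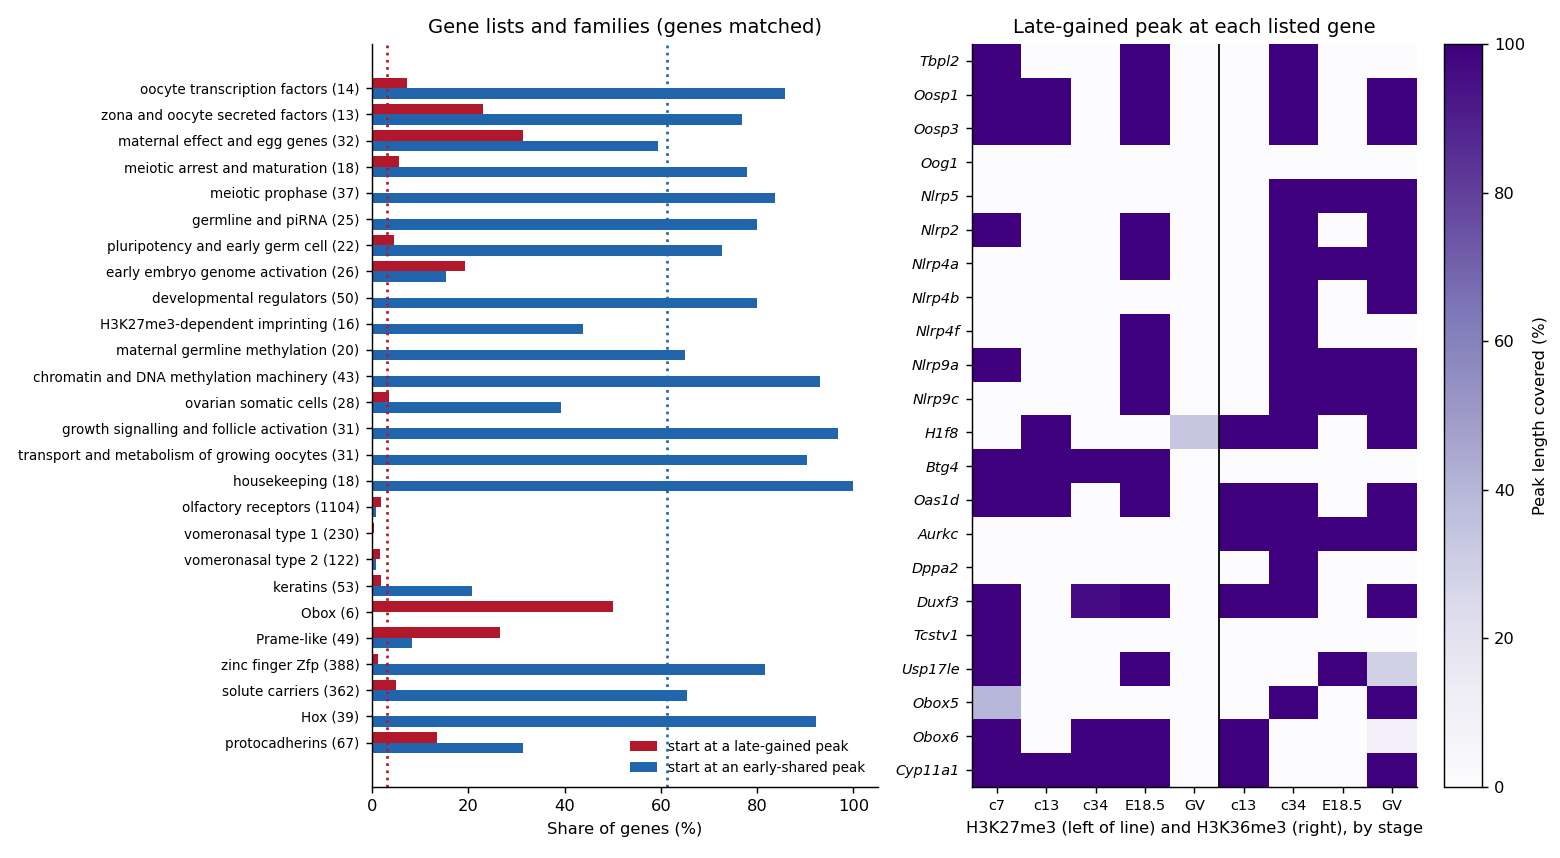
Bars on the left give the share (percent) of each gene list or family with a start at a late-gained or an early-shared peak, with dotted lines at 3.07% and 61.3% of all protein-coding genes, and the right panel the percent of the late-gained peak covered by H3K27me3 and H3K36me3 at each stage for the listed genes. At E18.5, 10 of the 15 oocyte, egg and maturation genes were at least 50% under H3K27me3, where 46.5% of all 634 genes were. In GV oocytes 0 of the 15 were, which for so few genes is near the 7.26% of all 634.

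The widest late-gained peaks with a gene start included no gene of the oocyte, egg and maturation lists, and Duxf3 of the genome activation list. The 69 kb peak at chr1:85243001-85312000, the widest of all, covered C130026I21Rik and Gm38510 and shared 43 kb with GV H3K4me3. It was under H3K36me3 in c34, E18.5 and GV oocytes and under no H3K27me3. A 33 kb peak on chromosome 18 held an end of Lmnb1, which encodes lamin B1, and of Marchf3, a ubiquitin ligase, and both genes also had a start at an early peak. Schip1 had 31 kb, Aven, an inhibitor of apoptosis, 29 kb, Igsf6 and Otoa shared 29 kb, and Scrg1 had 26 kb. Gm38510 and Scrg1 rest on an annotated end, and Aven also had a start at an early peak. Of the 10 widest late-gained peaks, 8 lay at no gene start, among them one of 47 kb on chromosome 15 at 107 kb from a start and one of 43 kb within Agap1.

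Named by the mark they carried in c34, genes with both H3K27me3 and H3K36me3 on their peak were Duxf3, Gm4981, LOC100504180, Mfng and Rimbp2. H3K27me3 alone lay on Accsl, Padi4, Fam71b, Lexm and Myl2. Padi4, a peptidylarginine deiminase, and Lexm had H3K27me3 over the whole peak in GV oocytes too, while Accsl, Fam71b and the myosin light chain gene Myl2 had 0%. Those with H3K36me3 alone were C130026I21Rik, Gm38510, Lmnb1, Marchf3 and Aven, and those with neither Schip1, Fxyd4, Il22, Fbxw27 and Mrc1. These are the 5 widest of each kind and not typical of it. LOC100504180, Mfng, Gm38510, Lmnb1, Marchf3 and Fbxw27 rest on an annotated end. Lmnb1, Marchf3 and Aven also had a start at an early peak.

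Early H3K27me3 with no cover in either late stage was the history of 175 of the 634 genes (27.6%), defined as at least 50% cover in at least 2 of c7, c13 and E18.5 and in neither c34 nor GV oocytes. Counted over peaks at gene starts, it was found at 166 of 605 late-gained peaks (27.4%), against 17.3% of all c34 peaks. The widest were at Lmnb1, Marchf3, Scrg1, Ncald and 1700093K21Rik. All of these but 1700093K21Rik rest on an annotated end, and Lmnb1, Marchf3 and Ncald also had a start at an early peak. H3K36me3 in both late stages and in neither early one was the history of 32 of the 634 genes (5.05%), and of 30 late-gained peaks at gene starts (4.96%), near the 4.88% of all c34 peaks there. Omt2a and Omt2b, oocyte maturation genes that lie side by side, shared a 20 kb peak of this kind (chr9:78311001-78331000) that c13 H3K27me3 covered wholly. Chn1, a GTPase-activating protein, had 18 kb, Rhoh, a small GTPase of blood cells, 17 kb, and Nlrp2 15 kb. Only 5 kb of the Chn1 peak lay in GV H3K4me3, and Chn1 also had a start at an early peak. At Rhoh H3K27me3 covered all of the peak in c7, c13 and at E18.5, 5.88% in c34 and none in GV oocytes.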

How the data were processed

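The authors deposited 13 peak lists, 1 per stage and mark, whose values are of an other kind than counts: positions in base pairs, with no score. Per the file headers and values, starts count from 0, ends are inclusive, and boundaries lie on a 10 kb grid, or 1 kb for H3K4me3. Builds mm10 and GRCm38.p3 stand in the submitters' processing notes, with MACS2 2.1.1, SICER 0.0.41, bedtools 2.29.2, Bowtie2 2.3.4.1, cutadapt 1.9.1, Trim Galore 0.4.1, deepTools 3.5.0, Picard 2.18.23 and SAMtools 1.7. The caller, threshold, use of input and pooling of each list were not given in the sources used here, and depth is unknown.

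Coordinates are 1-based on GRCm38. Gene positions, starts and promoter sequences came from RefSeq tables of GRCm38.p6. A start table covered part of the genes and none on chromosome 18, so both annotated ends stood for the start elsewhere, a departure from the planned rule. A peak was called covered at 50% or more. With 1 list per stage, shares carry Wilson 95% intervals and no test was run.

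The peaks, gene lists and comparisons were chosen with earlier results of these data known. Of 452 list entries 25 did not match the gene table. Named genes were list members, the 12 genes with the widest peaks, the 5 widest for each c34 combination of marks and for each named history, and genes in the widest peaks and fullest windows. Input libraries were not used here. Alternatives changed overlap, gaps, widths, starts and cover. The interval arithmetic was tested on simulated data. Software was matplotlib 3.10.9, scipy 1.17.1, pandas 2.3.3 and numpy 2.4.6 under Python 3.11.15.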

Additional observations from a re-analysis of the deposited data

How the results depend on the processing

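No paired analysis was possible because each stage and mark had 1 list and the results come from no test, and no replicate could be left out for the same reason. The number of late-gained peaks ran from 9882 to 16919 over 7 alternatives, within 1.5 times of 13450. Merging gaps up to 10 kb, letting 1 early list alone exclude peaks and the rules on listed starts and either end were chosen after seeing the data. Merging up to 3 kb changed nothing, since H3K4me3 peaks lie at least 4 kb apart. Median width was 6 kb for peaks of at least 3 kb and after merging up to 10 kb.

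The share at a gene start was 3.76% for starts inside the peak, 7.72% within 5 kb, 15.3% for all genes, 3.16% for listed starts without chromosome 18 and 6.96% for either end. Where the E18.5 list alone excluded peaks, 8.79% were at a start, 34.3% in gene bodies, 36.5% under c34 and 11.5% under GV H3K27me3, and 40.1% under c34 and 41.1% under GV H3K36me3. With no early peak within 5 kb, 30.7% were in gene bodies, 31.7% under c34 H3K27me3, 35.7% under c34 and 38.0% under GV H3K36me3. With any base counted as cover, the shares were 34.8% for gene bodies, 34.6% and 9.84% for c34 and GV H3K27me3, and 40.1% and 42.6% for c34 and GV H3K36me3. By length they were 8.40% for GV H3K27me3 and 41.1% and 42.3% for c34 and GV H3K36me3. For H3K36me3 in c34 and GV oocytes, requiring 50% of the peak in GV H3K4me3 gave 36% and 37.8%, a width of at least 3 kb 39.8% and 41.1%, and merging up to 10 kb 34.3% and 37.6%. Merging gave 10.1% for GV H3K27me3. The cause of these shifts was not tested. Unknown depth and calling thresholds limit every comparison between lists.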

Other observations

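Late-gained peaks also lay at starts or ends of genes without a protein product. They held 956 of 12408 long noncoding RNA genes (7.70%), where early-shared peaks held 25.5%. They held 549 of 8884 pseudogenes (6.18%, against 8.71% at early-shared peaks), 43 of 435 transcribed pseudogenes (9.89%, against 23.4%) and 28 of 1136 miRNA genes (2.46%, against 26.8%). For tRNA genes, which early-shared peaks held at 68.8%, the count was 5 of 391 (1.28%). Genes with no listed start were counted at both annotated ends, so these shares are not directly comparable with the 3.07% of protein-coding genes.

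On the X chromosome, left out of the values above, 501 of 1148 c34 peaks (43.6%) met the same rule, with a median width of 4 kb. H3K27me3 covered at least 50% of 4.99% of them in GV oocytes and of 65.1% at E18.5, and of 34.9%, 16.0% and 12.8% in c7, c13 and c34. H3K36me3 covered 22.0% in GV oocytes, 40.9% at E18.5, 27.1% in c34 and 16.8% in c13. The shares over all c34 peaks on X were not counted, so whether these values differ from those of X as a whole was not tested.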
